A study of Mus musculus with 26 samples.

Results

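Labelled RNA at the start of a chase was compared between a pair of cultured mouse glial cell types, oligodendrocyte progenitor cells (OPCs) and oligodendrocytes (OLs). The comparison took 5 of the 26 samples of the series, the 3 OPC libraries and 2 OL libraries of 0 h, chosen by the cell type and time point in their labels. It rests on the 8177 transcripts listed for both cell types out of 10104 listed for either. The 353 transcripts listed for OPCs only and the 1574 listed for OLs only were kept apart and are given as levels. OPCs of strain 129S/SvEv had been derived from epiblast stem cells and were kept in DMEM/F12 with N2 Max, B27 and the growth factors bFGF and PDGFA. For OLs, such OPCs first went through 2 passages in their growth medium with bFGF left out. They were then seeded more densely than the OPC dishes and differentiated in the same base with noggin, IGF-1, cyclic AMP, NT3 and thyroid hormone (T3). Neither bFGF nor PDGFA is named for this differentiation medium. Both cell types took up 5-ethynyluridine (5-EU) for 24 h, a uridine analogue through which labelled RNA is coupled to biotin and pulled down on streptavidin beads. The study asked how tRNA modification and mRNA stability differ between the cell types, and 0 h is the level from which its decay curves start.

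OPCs divide under PDGF and FGF signalling, and they stop dividing when they differentiate. OLs then make the proteins and lipids of myelin, the stacked membrane that insulates axons, and Mbp and Cnp are among its classical proteins. Thyroid hormone promotes this step, and the receptor Gpr17 and the protein Bcas1 mark cells that have only recently entered it.

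The cultures limit both groups as models. The OLs were labelled while they were still differentiating, in dishes for which no axons are named, and the study describes some cells of these cultures as remaining OPCs. Cells that started some of the OPC replicates also gave rise to the OLs, but the study does not say which replicates these were. The study calls the replicates biological, and a p-value measures the spread between these libraries.

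Values are unscaled FPKM, fragments scaled to transcript length in kilobases and to the mapped reads of a library, and they summed over listed transcripts to between 391712 and 432287 in the OPC libraries and to 350563 and 342224 in the OL libraries. FPKM keep no read counts, so the depth behind each value is unknown. The 100 highest shared transcripts held 26.6% to 27.2% of the summed FPKM of shared transcripts in OPCs and 18% in both OL libraries. On log2(FPKM + 1) the libraries correlated across shared transcripts at Pearson's r of 0.929 to 0.969 within OPCs, 0.959 between the OL libraries, and 0.778 to 0.799 between cell types. Of 10 microglial, 10 pluripotent cell and 6 endothelial markers none was listed in either table. Markers of other cell types were listed in part, and their part in the results was not tested. Of 12 neuron markers 3 were tested and 1 was higher in OLs, a call lost without OL replicate 1 or OL replicate 2, 7 were in neither table, and the tested ones summed to 83.3 to 189 FPKM in OPCs and to 212 and 198 FPKM in OLs. Of 9 neural stem cell markers 6 were tested, 1 was higher and 2 lower, and they summed to 1634 to 2076 FPKM in OPCs and to 1176 and 1413 FPKM in OLs. Without OL replicate 1 none of them was lower. The 1 of 9 fibroblast or pericyte markers tested (3.25 to 6.64 FPKM in OPCs and 2.51 and 2.08 FPKM in OLs) and the 2 of 6 Schwann cell markers tested (summed to 64.9 to 98.2 FPKM and to 71.2 and 77.3 FPKM) were not called.

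The labels were checked against markers of each cell type. Of 16 oligodendrocyte markers the 3 listed for both cell types (Mbp, Ugt8a and Cnp) were higher in OLs, a further 11 were listed for OLs only, and Aspa and Ermn were listed in neither table. The 3 shared members summed to 57.5, 39.2 and 47.7 FPKM in the OPC libraries and to 4864 and 2190 FPKM in the OL libraries, and the others have no OPC value. All 5 lineage markers (Olig1, Olig2, Sox10, Sox8 and Nkx2-2) were listed for both cell types, 3 called higher and 2 lower in OLs. In the 1 h libraries the change of Nkx2-2 was 0.21 and limma did not call it (adjusted p 0.434). The counts were 3 higher and 1 lower with the equal sum and 3 higher and 0 lower with quantile normalization. Without OL replicate 1 the counts were 0 higher and 2 lower, and without OPC replicate 3 or OL replicate 2 they were 2 higher and 0 lower. The OPC markers did not separate the cultures in 1 direction, and 3 of 7 tested were higher in OLs, 1 was lower and 3 were not called. The counts of these markers were 2 higher and 2 lower without OPC replicate 2, 3 higher and 2 lower without OPC replicate 1, 1 higher and 1 lower without OPC replicate 3, 0 higher and 1 lower without OL replicate 1 and 2 higher and 1 lower without OL replicate 2, and their median of -0.07 turned to 0.18 with the equal sum and to 0.40 without OPC replicate 1. That median was also 0.22 without OL replicate 1 and -0.42 without OPC replicate 3. Pdgfra, the receptor for PDGFA, was higher in OLs, with 26.5, 11.5 and 13.3 FPKM in OPC replicates 1, 2 and 3 and 66.9 and 43.9 FPKM in OL replicates 1 and 2. Cspg4, the NG2 proteoglycan, had 45.1 ± 10.0 FPKM in OPCs and 30.3 ± 0.599 FPKM in OLs (mean ± SD, n = 3 and 2) and was not called by limma. Its log2 difference between OLs and OPCs was -0.53 ± 0.22, the error being the SE, at an adjusted p of 0.0961. Calls were lost for Pdgfra without OL replicate 1, adjusted p 0.0913. Calls were gained for Cspg4 without OPC replicate 2, adjusted p 0.0314.

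With limma on log2(FPKM + 1), 2586 of the 8177 shared transcripts (31.6%) differed at an adjusted p under 0.05. The 1155 higher in OLs made up 14.1% of those tested and the 1431 lower made up 17.5%. At an unadjusted p under 0.05 the total was 3553. The median change over all shared transcripts was -0.01 on the log2 scale, where a positive value is higher in OLs. Changes of over 4 log2 units were seen for 26 transcripts higher and 2 lower in OLs, and changes of over 1 unit for 794 higher and 816 lower. The middle of the called sets was closer to 1 unit, with a median size of 1.20 among transcripts higher and 1.08 among those lower, beside a median SE of 0.27 over all transcripts. The groups did not overlap for 4850 transcripts (59.3%), of which 2286 (28.0%) had both OL libraries above all OPC libraries and 2564 (31.4%) had both below. With 3 libraries against 2 an exact permutation test of a single transcript cannot give a p under 0.1. In bulk samples fewer cells of a type and less RNA per cell cannot be told apart, and a level at 0 h holds both synthesis and decay over the labelling period.

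The balance of directions depended on the scale. FPKM are shares of a library, and setting the 5 libraries to an equal sum over shared transcripts moved the median of all transcripts from -0.01 to 0.27 and the calls to 1810 higher and 850 lower. Changes given in brackets are log2 changes with their SE on the deposited scale, and where the median given for a group turned sign with the equal sum or quantile normalization, this is said beside it. Counts of members called in the groups that follow are to be read against the 14.1% higher and 17.5% lower of all transcripts. Values at 1 h are from the libraries of the next time point, each centred on its median. Without OPC replicate 3, OL replicate 1 or OL replicate 2 in turn, the count of calls was 1446, 1183 and 1464.

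**Figure D1:**
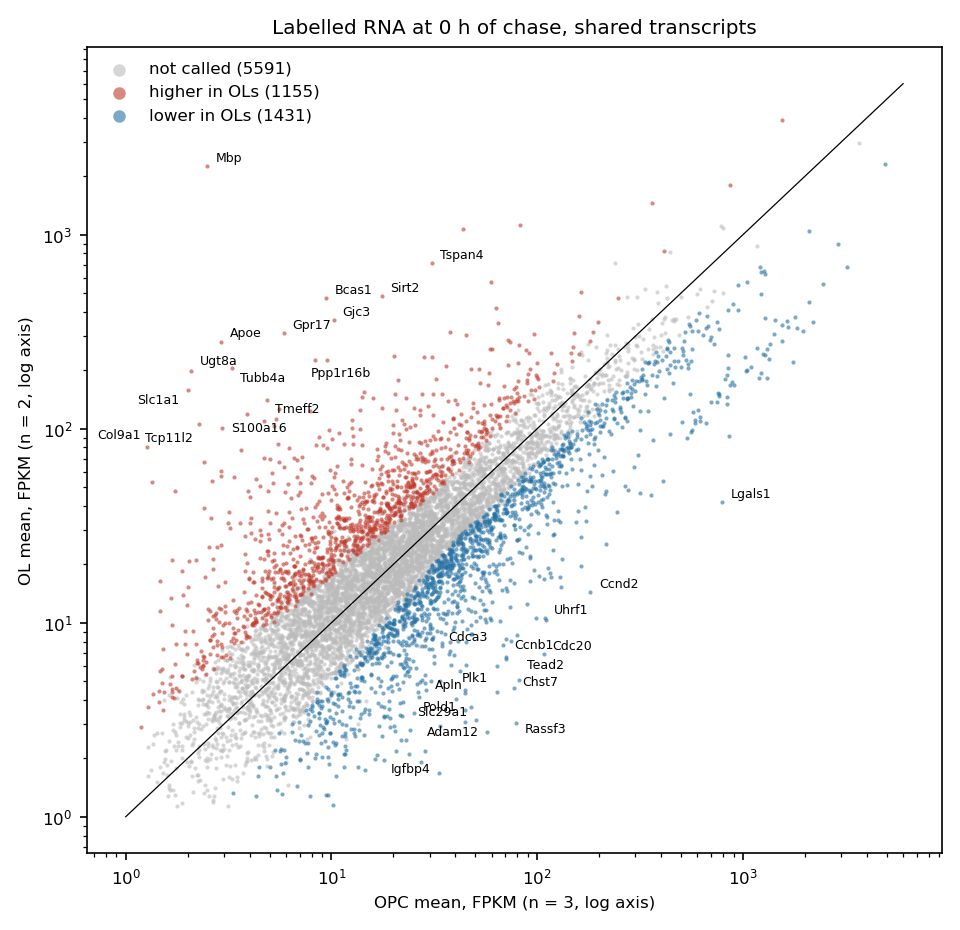
Mean FPKM of each of the 8177 shared transcripts in OPCs (horizontal, n = 3) and OLs (vertical, n = 2) at 0 h, on log axes, with equality as a line, transcripts higher in OLs in red, lower in blue and not called in grey. Mbp stands apart at the upper left, at 2.49 FPKM in OPCs and 2254 FPKM in OLs, and the symbols mark the 15 largest changes in each direction.

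The largest rise was that of Mbp, myelin basic protein, which compacts the cytoplasmic faces of the sheath. Its level was 3.99, 1.19 and 2.29 FPKM in OPC replicates 1, 2 and 3 and 3213 and 1295 FPKM in OL replicates 1 and 2. The groups lay far apart, with a log2 change of 9.27 ± 0.41 (SE) and an adjusted p of 6.75e-06, and Mbp went from rank 7993 of 8177 in OPCs to rank 4 in OLs. Apoe, the main lipid carrier of the brain, had 1.69, 1.78 and 5.28 FPKM in OPCs and 146 and 416 FPKM in OLs (6.10 ± 0.48, adjusted p 4.49e-05), and here the 2 OL libraries differed widely, with replicate 2 above replicate 1. Ugt8a, which makes the galactosylceramide of myelin, had 2.45, 1.58 and 2.21 FPKM in OPCs and 251 and 146 FPKM in OLs (5.97 ± 0.30, adjusted p 6.83e-06). Gpr17 differed little between the OL libraries, with 5.99, 5.00 and 6.61 FPKM in OPCs and 323 and 299 FPKM in OLs (5.51 ± 0.20, adjusted p 2.52e-06). Bcas1 had 6.80, 11.2 and 10.4 FPKM in OPCs and 577 and 363 FPKM in OLs (5.48 ± 0.27, adjusted p 6.83e-06).

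Next to these came genes of mixed function. Slc1a1, a glutamate transporter, had 2.19, 1.95 and 1.85 FPKM in OPCs and 196 and 121 FPKM in OLs, and Tubb4a, a beta-tubulin of myelinating cells, had 3.86, 2.99 and 2.98 FPKM in OPCs and 251 and 159.9 FPKM in OLs. The log2 changes were 5.69 ± 0.28 and 5.57 ± 0.27. Tspan4, a tetraspanin, was the most abundant of these, with 49.4, 25.8 and 17.2 FPKM in OPCs and 854 and 577 FPKM in OLs (4.59 ± 0.37). Sirt2, a tubulin deacetylase of myelin, had 23.3, 12.6 and 16.8 FPKM in OPCs and 664 and 302 FPKM in OLs (4.63 ± 0.34). The other members of the leading 15 were Col9a1 (5.14), a cartilage-type collagen chain, Gjc3 (5.05), a glial connexin, Tcp11l2 (5.04), the calcium-binding S100a16 (4.74), the phosphatase subunit Ppp1r16b (4.69) and Tmeff2 (4.62), a transmembrane protein. Ranking only transcripts with a mean of at least 20 FPKM in the higher group named the same 15. Exons of Slc1a1, Gpr17 and Tspan4 overlap those of a coding gene on the other strand, by 226, 121 and 292 bases, and the authors' alignment and counting commands set no strand option, so reads of such pairs cannot be told apart.

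The largest fall was that of Rassf3, a Ras-association domain protein, with 79.9, 87.3 and 69.8 FPKM in OPC replicates 1, 2 and 3 and 1.37 and 4.71 FPKM in OL replicates 1 and 2. Its log2 change was -4.44 ± 0.34 (SE, adjusted p 4.05e-05). Lgals1, the lectin galectin-1, was among the most abundant transcripts to fall, with 1035, 554 and 781 FPKM in OPCs and 33.5 and 50.2 FPKM in OLs (-4.19 ± 0.28, adjusted p 2.27e-05). Ccnd2, cyclin D2, which carries growth factor signals into the cell cycle, had 157, 214 and 172 FPKM in OPCs and 10.1 and 18.6 FPKM in OLs (-3.62 ± 0.26, adjusted p 2.72e-05).

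The leading 15 falls held 6 genes of DNA replication and division, Cdc20, Plk1, Cdca3, Pold1, Ccnb1 and Uhrf1. The others were Adam12 (-3.97), a metalloprotease, Tead2 (-3.82), a partner of the Hippo pathway coactivators, Chst7 (-3.80), a sulfotransferase for chondroitin chains, Igfbp4 (-3.68), a binding protein for insulin-like growth factors, Slc29a1 (-3.59), a nucleoside transporter, and Apln (-3.49), the peptide ligand apelin. Tead2 had 80.3, 81.3 and 82.3 FPKM in OPCs and 3.38 and 6.80 FPKM in OLs, and Chst7 had 76.7, 76.4 and 78.1 FPKM in OPCs and 4.02 and 5.23 FPKM in OLs. Exons of Cdc20 and Tead2 overlap a coding gene of the other strand, by 53 and 13 bases.

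**Figure D2:**
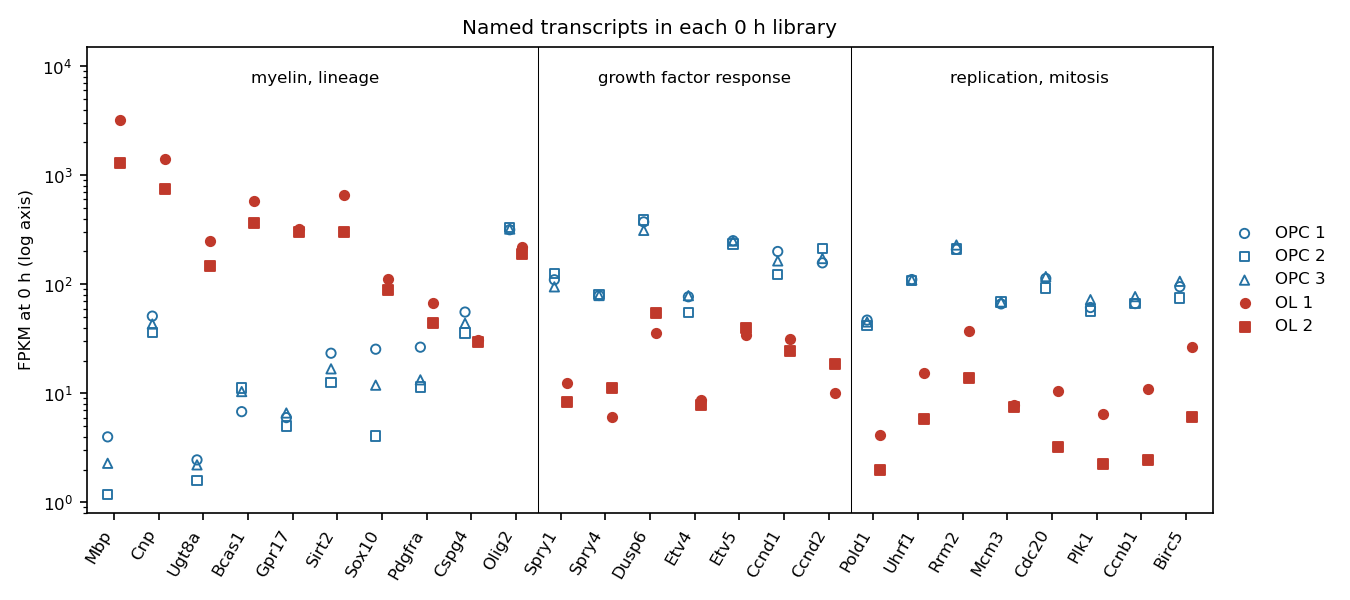
FPKM at 0 h in each of the 5 libraries (vertical, log axis) for 25 transcripts of the myelin and lineage, growth factor and cell cycle groups, with open blue symbols for the 3 OPC replicates and filled red symbols for the 2 OL replicates. Both OL libraries lie on 1 side of all OPC libraries in every column drawn, closest for Cspg4 (35.7 FPKM in OPC replicate 2, 30.7 FPKM in OL replicate 1).

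Of the 38 myelin and mature oligodendrocyte proteins, 17 were tested, 11 were higher in OLs and 1 was lower, with a median change of 2.48, and a further 17 were listed for OLs only and 4 in neither table. The 17 tested members summed to 1664, 1235 and 1420 FPKM in the OPC libraries and to 8963 and 4981 FPKM in the OL libraries. Cnp, an enzyme of the non-compact myelin layers, had 51.1, 36.4 and 43.2 FPKM in OPC replicates 1, 2 and 3 and 1399 and 748 FPKM in OL replicates 1 and 2 (4.54 ± 0.27, adjusted p 1.78e-05). Tppp, which bundles microtubules, had 4.61, 3.51 and 3.54 FPKM in OPCs and 153 and 86.4 FPKM in OLs (4.58 ± 0.29). Gjc3, Sirt2 and Bcas1, named above, also belong here. Smaller rises were those of Cd9 (2.88), a tetraspanin, Plekhb1 (2.57), Omg (2.48), the oligodendrocyte myelin glycoprotein, Gsn (1.42), the actin-severing gelsolin, and Jam3 (1.21), a junctional adhesion molecule. The 1 member that fell, Anln (-2.49), is also a cytokinesis protein and a member of the mitosis list. Among those not called were Car2 (13.1 ± 5.80 FPKM in OPCs and 23.9 ± 2.72 FPKM in OLs), a carbonic anhydrase, and Cd81 (803 ± 143 FPKM in OPCs and 1087 ± 225 FPKM in OLs). OL replicate 1 was above OL replicate 2 for 15 of the 17. The call did not hold for Gsn without OL replicate 1 or at 1 h (1.28), adjusted p 0.0524 to 0.132, and for Jam3 without OL replicate 1, adjusted p 0.0607. A call was gained for Car2 without OPC replicate 1, with the equal sum (1.18) or at 1 h (1.40), adjusted p 0.0075 to 0.0283, and for Cd81 with the equal sum (0.73) or with quantile normalization (1.33), adjusted p 0.000537 to 0.0333.

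Mag, the adhesion glycoprotein of the innermost myelin layer, was among the members listed for OLs only. It had 481 and 247 FPKM, and Cldn11, the tight junction protein of the sheath, had 128 and 47.3 FPKM. Mog, on its outer surface, had 79.0 and 31.0 FPKM. Late markers were low, with 24.4 and 10.8 FPKM for Mobp, 11.0 and 3.80 FPKM for Opalin and 8.23 and 2.68 FPKM for Mal. Transcripts of this kind have no OPC value here, since 1 OPC library under 1 FPKM was enough to leave a transcript out of the OPC table, so no fold change or test was made.

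Transcription factors of the lineage moved both ways. Of 34 tested, 11 were higher and 10 lower in OLs, with a median change of -0.09 that turned to 0.18 with the equal sum and 0.14 with quantile normalization. The calls became 9 higher and 6 lower without OPC replicate 3, 6 higher and 6 lower without OL replicate 1 and 14 higher and 6 lower with the equal sum. Sox10, which switches on myelin genes, had 25.4, 4.07 and 11.9 FPKM in OPC replicates 1, 2 and 3 and 111 and 89.0 FPKM in OL replicates 1 and 2 (3.07 ± 0.54, adjusted p 0.00291), and OPC replicate 2 was the lowest. The others that rose most were Mycl (2.76), Zeb2 (2.58), a repressor needed for OL maturation, Klf9 (2.26), a thyroid hormone target, Tcf7l2 (1.97), a Wnt effector of new OLs, and Sox2 (1.40). Tcf7l2 had 15.6, 25.9 and 19.7 FPKM in OPCs and 91.3 and 71.7 FPKM in OLs. Myrf, the membrane-bound activator of myelin genes, was listed for OLs only with 55.9 and 41.4 FPKM, and so were Zfp488 (37.5 and 28.6 FPKM) and Nkx6-2 (7.60 and 5.26 FPKM). Medians ran from -0.19 without OL replicate 2 to 0.17 without OL replicate 1 for the lineage factors. The test was not passed for Sox10 without OL replicate 1, adjusted p 0.0511.

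Among the 10 that fell were factors of the progenitor state. Sox11 had 35.4, 77.5 and 55.6 FPKM in OPCs and 14.5 and 16.1 FPKM in OLs (-1.74 ± 0.30), and the E protein Tcf3 had 82.4, 68.3 and 71.3 FPKM in OPCs and 21.6 and 21.2 FPKM in OLs (-1.74 ± 0.18). Both were apart between the groups. Zeb1 (-1.34) and Hes6 (-1.25) also fell. Olig1 (1008, 1053 and 1079 FPKM in OPCs and 635 and 506 FPKM in OLs; -0.88 ± 0.23) and Olig2, which define the lineage, were abundant in both cell types and lower in OLs, although with quantile normalization the change of Olig1 was 0.33. Olig2 had 316, 332 and 321 FPKM in OPCs and 218 and 189.6 FPKM in OLs (-0.67 ± 0.18, adjusted p 0.0196). The threshold was not reached for Zeb1 without OL replicate 1 or OL replicate 2 or with the equal sum (-1.05), adjusted p 0.0565 to 0.119, for Olig1 without OPC replicate 3 or OL replicate 2, adjusted p 0.0635 to 0.117, and for Olig2 without OPC replicate 3 or OL replicate 2, with the equal sum (-0.37), with quantile normalization (-0.19) or at 1 h (-0.55), adjusted p 0.0786 to 0.37.

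Receptors and surface proteins of progenitors and of maturing OLs gave 10 higher, 3 lower and 14 not called among 27 tested. The list is mixed, since Gpr17 and Gpr37, which rose, belong to cells that have begun to differentiate. Its median of -0.13 turned to 0.17 with the equal sum and 0.03 with quantile normalization. Other settings gave 11 higher and 5 lower without OPC replicate 1 and 6 higher and 1 lower without OL replicate 1. Beside Gpr17 and Pdgfra, those that rose included Gpr37 (2.64, 1.45 and 1.99 FPKM in OPCs and 27.6 and 14.0 FPKM in OLs; 2.80 ± 0.35), an orphan receptor of maturing OLs, Erbb4 (2.68), a neuregulin receptor, Ednrb (2.30), an endothelin receptor, and Cntn1 (2.09), an adhesion molecule. Those that fell were Adgrg1 (273, 222 and 283 FPKM in OPCs and 91.5 and 112 FPKM in OLs; -1.34 ± 0.19), an adhesion receptor that keeps OPCs dividing, the proteoglycan Ncan (-1.10) and the FGF receptor Fgfr1 (46.6, 45.4 and 38.9 FPKM in OPCs and 18.9 and 31.9 FPKM in OLs; -0.80 ± 0.25). Fgfr2 rose (3.80, 3.69 and 3.93 FPKM in OPCs and 26.7 and 18.7 FPKM in OLs; 2.28 ± 0.28), so Fgfr1 and Fgfr2 moved in opposite directions. Ptprz1, a receptor phosphatase of OPCs, had 175 ± 78.5 FPKM in OPCs and 118 ± 12.9 FPKM in OLs and was not called (-0.46 ± 0.34). Tnr, a matrix protein, was listed for OLs only with 125 and 96.5 FPKM, and Erbb2, Nrp2 and P2rx7 for OPCs only. Leaving out 1 library, medians lay from -0.16 without OPC replicate 3 to 0.19 without OL replicate 1 for these receptors and surface proteins. The call was lost for Ncan without OL replicate 1, adjusted p 0.0673, and for Fgfr1 without OPC replicate 2, OPC replicate 3 or OL replicate 1, with the equal sum (-0.51) or with limma without trend, adjusted p 0.0526 to 0.272. Calls were gained for Ptprz1 without OPC replicate 1, adjusted p 0.0134.

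DNA replication genes were lower in OLs for the most part. Of 50 listed, 32 were tested, 26 were lower in OLs and 0 higher, against 17.5% and 14.1% of all shared transcripts. The median change was -1.89, 14 more members were listed for OPCs only and none for OLs only. Leaving out 1 library in turn gave 22 to 27 lower members. Pold1, the catalytic subunit of DNA polymerase delta, had 47.0, 42.0 and 45.1 FPKM in OPC replicates 1, 2 and 3 and 4.19 and 1.98 FPKM in OL replicates 1 and 2 (-3.54 ± 0.29, adjusted p 4.67e-05). Rrm2, which makes deoxyribonucleotides, had 209, 210.1 and 229 FPKM in OPCs and 37.0 and 13.8 FPKM in OLs (-3.19 ± 0.33), and Mcm3, of the helicase that opens origins, had 66.1, 68.6 and 68.9 FPKM in OPCs and 7.86 and 7.53 FPKM in OLs (-2.99 ± 0.19). Uhrf1 (-3.39), which carries DNA methylation through replication, Tyms (-2.87), which makes thymidylate, and Mcm5 (-2.87) completed the 6 largest. Both OL libraries lay below all OPC libraries for 28 of the 32, beside 31.4% of all transcripts. Among the 6 not called was Ccne2, cyclin E2, with 22.9 ± 10.1 FPKM in OPCs and 11.6 ± 4.46 FPKM in OLs (-0.88 ± 0.38). A call was gained for Ccne2 without OPC replicate 1 or at 1 h (-1.05), adjusted p 0.00902 to 0.00907.

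Mitosis genes fell as well. Of 29 tested, 21 were lower and 0 higher, with a median of -2.25, 18 were listed for OPCs only, and the condensin subunit Smc4 was listed for OLs only (6.85 and 3.70 FPKM). Without 1 library in turn the lower count was 16 to 28, the lowest without OPC replicate 3 and without OL replicate 2. Cdc20, the activator of the anaphase-promoting complex, had 113, 92.5 and 118 FPKM in OPC replicates 1, 2 and 3 and 10.6 and 3.20 FPKM in OL replicates 1 and 2 (-3.96 ± 0.37, adjusted p 8.11e-05). Plk1, a mitotic kinase, had 61.3, 56.9 and 72.3 FPKM in OPCs and 6.51 and 2.25 FPKM in OLs (-3.70 ± 0.34), and Ccnb1, cyclin B1, had 66.5, 67.0 and 77.1 FPKM in OPCs and 10.9 and 2.47 FPKM in OLs (-3.47 ± 0.43). In each of the 3, OL replicate 1 kept more than OL replicate 2, as in 27 of the 29 members. Cenpa (-3.29), the histone of centromeres, Ube2c (-3.16), a ubiquitin-conjugating enzyme of anaphase, and Ect2 (-3.11), of cytokinesis, followed. Mki67, the usual marker of dividing cells, had 8.46, 41.3 and 30.2 FPKM in OPC replicates 1, 2 and 3 and 10.4 and 4.73 FPKM in OL replicates 1 and 2 and was not called (-1.52 ± 0.58, adjusted p 0.071), and its low OPC replicate 1 lay near OL replicate 1. The fall was larger in OL replicate 2, with list medians of -1.50 and -2.33 for replication and -1.82 and -2.62 for mitosis in OL replicates 1 and 2 against the OPC mean. Calls were gained for Mki67 without OPC replicate 1 or at 1 h (-1.95), adjusted p 0.00031 to 0.00891.

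Short promoter motifs of these genes can be read beside their levels, and their shares differ between the lists. E2F factors bind TTTCCCGC or TTTGGCGC, NF-Y binds CCAAT, and the cell cycle homology region (CHR), written here as TTTGAA, is found in promoters of G2 and M phase genes. Promoters were the 250 bases before to 50 after a gene start from RefSeq (GRCm38.p6), matched to 6231 of the 8177 shared transcripts within 500 bases of their start, and each motif was sought on both strands. An E2F motif was in 28.6% of the promoters of the DNA replication list (10 of 35), in 6.15% of those of transcripts lower in OLs, in 1.62% of those higher, in 3.39% of those of all shared transcripts and in 1.56% of all 32851 promoters. TTTGAA was in 75.7% of the promoters of the mitosis list (28 of 37), in 13.8% of those lower, in 7.77% of those higher, in 10.5% of all shared and in 17.9% of all promoters. An E2F motif was in 8.11% of the mitosis list (3 of 37), and TTTGAA in 5.71% of the replication list (2 of 35). The E-box CACGTG was in 11.0% of the promoters of transcripts higher and 10.7% of those lower, and the sterol element TCACNCCAC in 1.86% and 0.652%, beside 10.7% and 0.979% of all shared. CCAAT was in 78.4% of the mitosis list, in 60% of the replication list, in 42.6% of those lower, in 38.3% of those higher, in 39.1% of all shared and in 37.4% of all promoters. It was also in 71.4% of the cholesterol synthesis list (15 of 21) and in 42.6% of those of transcripts listed for OLs only. A match describes the sequence, and binding was not measured.

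The 150 bases before the start of 7 members that fell show how the motifs lie. For mitosis they are those of the 4 largest falls with both TTTGAA and CCAAT in this window, and for replication the 3 largest with an E2F motif. Only members whose RefSeq start lay within 100 bases of the start of their transcript were taken, which left out Cdc6 (-2.13), with TTTCCCGC in this window but starts 350 bases apart. Each is written 5′ to 3′ on the strand of its gene, in RefSeq sequence of GRCm38.p6. Capitals mark CCAAT in all 7, TTTGAA in the mitosis genes and TTTGGCGC in the replication genes, read on either strand. The windows are chr4:118437344-118437493 (minus strand) for Cdc20, chr2:164769779-164769928 (plus) for Ube2c, chr3:27153879-27154028 (minus) for Ect2, chr15:102296143-102296292 (plus) for Espl1, chr8:75109359-75109508 (plus) for Mcm5, chr1:128359706-128359855 (minus) for Mcm6 and chrX:93632156-93632305 (minus) for Pola1.
Cdc20: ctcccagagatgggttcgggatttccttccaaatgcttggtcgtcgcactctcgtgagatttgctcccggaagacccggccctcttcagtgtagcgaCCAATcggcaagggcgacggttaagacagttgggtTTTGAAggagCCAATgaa
Ube2c: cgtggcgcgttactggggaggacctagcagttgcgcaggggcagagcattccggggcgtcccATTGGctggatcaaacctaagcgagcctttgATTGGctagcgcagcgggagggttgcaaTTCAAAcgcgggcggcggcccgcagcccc
Ect2: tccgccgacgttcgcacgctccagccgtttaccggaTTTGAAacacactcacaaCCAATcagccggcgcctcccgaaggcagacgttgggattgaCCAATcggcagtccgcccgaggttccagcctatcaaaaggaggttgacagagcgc
Espl1: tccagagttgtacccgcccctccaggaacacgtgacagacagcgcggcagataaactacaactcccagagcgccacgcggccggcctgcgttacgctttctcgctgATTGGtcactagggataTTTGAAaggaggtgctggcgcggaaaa
Mcm5: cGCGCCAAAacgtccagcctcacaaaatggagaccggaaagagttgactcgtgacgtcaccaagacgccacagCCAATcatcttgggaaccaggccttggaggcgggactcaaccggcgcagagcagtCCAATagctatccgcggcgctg
Mcm6: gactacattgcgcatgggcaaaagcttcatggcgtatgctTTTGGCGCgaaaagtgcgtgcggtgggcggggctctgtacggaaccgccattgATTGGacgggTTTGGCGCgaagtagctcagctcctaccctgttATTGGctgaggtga
Pola1: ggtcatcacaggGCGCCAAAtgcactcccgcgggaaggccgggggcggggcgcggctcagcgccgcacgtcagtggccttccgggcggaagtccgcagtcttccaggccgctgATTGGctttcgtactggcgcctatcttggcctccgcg
In Cdc20, Ube2c and Espl1 the TTTGAA motif begins 18, 29 and 27 bases before the start, with a CCAAT motif further upstream. In Ect2 it begins 114 bases before the start and both CCAAT motifs lie between it and the start. Mcm6 holds the E2F motif at 110 and 47 bases, and Mcm5 and Pola1 hold it once, at 149 and 138 bases. The log2 changes were -3.96, -3.16, -3.11 and -3.06 for these mitosis genes and -2.87, -2.42 and -1.76 for the replication genes, of which Pola1 is the catalytic subunit of the primase-polymerase. Calls were lost for Pola1 without OPC replicate 2, OPC replicate 3, OL replicate 1 or OL replicate 2 or with the equal sum (-1.51), adjusted p 0.0526 to 0.232.

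Regulators of the cycle moved less evenly. Of 21 cyclins, Cdks, inhibitors and their targets tested, 8 were lower and 3 higher, with a median of -0.38 that was -0.08 with the equal sum. These counts came to 0 higher and 6 lower without OPC replicate 3 and without OL replicate 1 and 0 higher and 5 lower without OL replicate 2. Ccnd1 had 200.0, 124 and 164 FPKM in OPCs and 31.3 and 24.3 FPKM in OLs (-2.49 ± 0.23), beside the larger fall of Ccnd2. Cdk2 (-1.55) and the inhibitor Cdkn2c (-1.29) fell too. Rb1 (4.75, 16.5 and 7.62 FPKM in OPCs and 25.7 and 33.9 FPKM in OLs; 1.68 ± 0.42), the brake on E2F, and its relative Rbl2 (1.13) rose. The inhibitor Cdkn1a had 149 ± 48.7 FPKM in OPCs and 179 ± 10.1 FPKM in OLs, its relative Cdkn1b had 54.7 ± 14.3 FPKM in OPCs and 67.7 ± 1.92 FPKM in OLs, and neither was called. E2f1, E2f2 and Rbl1 were listed for OPCs only. With 1 library left out, list medians ran from -0.47 without OL replicate 1 to -0.17 without OPC replicate 1 for the cell cycle regulators. The call did not hold for Rb1 without OPC replicate 3, OL replicate 1 or OL replicate 2, adjusted p 0.0519 to 0.13, and for Rbl2 without OPC replicate 3, OL replicate 1 or OL replicate 2, adjusted p 0.0935 to 0.163. A call was gained for Cdkn1a at 1 h (0.75), adjusted p 0.0152.

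Among genes that growth factors induce through ERK, falls outnumbered rises. Of 25 feedback and early response genes tested, 10 fell and 1 rose, with a median of -0.78, and leaving out 1 library in turn gave 7 to 12 lower. Spry1, an inhibitor of receptor signalling that ERK itself induces, had 110.1, 126 and 94.8 FPKM in OPC replicates 1, 2 and 3 and 12.3 and 8.30 FPKM in OL replicates 1 and 2 (-3.31 ± 0.22, adjusted p 2.32e-05). Dusp6, the ERK phosphatase, had 374, 388 and 312 FPKM in OPCs and 35.7 and 54.9 FPKM in OLs (-2.98 ± 0.22, adjusted p 3.13e-05). Spry4 (-3.11), the Ets factors Etv4 (-2.93) and Etv5 (-2.69) and Ccnd1 made up the other large falls. Fos, an immediate early factor, was the 1 member that rose, with 5.42, 3.20 and 10.3 FPKM in OPCs and 16.4 and 29.4 FPKM in OLs (1.77 ± 0.43, adjusted p 0.0129). OL replicate 2 was above OL replicate 1 for 19 of the 25. Medians ran from -0.80 without OL replicate 2 to -0.39 without OL replicate 1 for the growth factor response genes. The test was not passed for Fos without OL replicate 2, adjusted p 0.134.

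Genes of hormone and insulin signalling held some of the largest single changes. Of 12 thyroid hormone response genes tested, 5 were higher and 1 lower, with a median of 0.39. The 5 higher included Mbp, by far the largest change of this list. The split was 4 higher and 2 lower without OPC replicate 2, 3 higher and 1 lower without OL replicate 1 and 3 higher and 2 lower without OL replicate 2. Klf9 had 6.24, 10.2 and 10.4 FPKM in OPCs and 51.8 and 40.3 FPKM in OLs (2.26 ± 0.28), and Hr, a corepressor that T3 induces, was listed for OLs only with 69.5 and 58.1 FPKM. Of 22 FoxO target and insulin signalling genes, 6 were higher and 5 lower. The counts were 5 higher and 3 lower without OPC replicate 3 and without OL replicate 2 and 3 higher and 3 lower without OL replicate 1. Binding proteins for insulin-like growth factors led the falls, and Igfbp2 had 1156, 599 and 805 FPKM in OPCs and 73.3 and 109.7 FPKM in OLs (-3.18 ± 0.29), Igfbp3 had 347, 275 and 264 FPKM in OPCs and 43.1 and 83.6 FPKM in OLs (-2.27 ± 0.27) and Igfbp4 had 31.0, 32.3 and 36.4 FPKM in OPCs and 1.44 and 1.92 FPKM in OLs. Among FoxO targets Bnip3 (1.88), Map1lc3b (1.33) and Txnip (1.20) rose, while Igf1r, the receptor for the IGF-1 of the OL medium, had 21.3 ± 3.08 FPKM in OPCs and 15.1 ± 1.14 FPKM in OLs and was not called. Leaving out 1 library, medians lay from 0.24 without OL replicate 2 to 0.60 without OL replicate 1 for thyroid hormone response genes. The threshold was not reached for Bnip3 without OL replicate 1, adjusted p 0.0519.

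Of 28 cholesterol synthesis genes 5 were higher and 2 lower, with a median of 0.21, beside 14.1% and 17.5% of all transcripts. The calls became 3 higher and 0 lower without OPC replicate 3, 1 higher and 0 lower without OL replicate 1, 3 higher and 1 lower without OL replicate 2 and 9 higher and 1 lower with the equal sum. Hmgcs1, an early enzyme of the pathway, had 215, 252 and 274 FPKM in OPCs and 550.0 and 394 FPKM in OLs (0.92 ± 0.22), and Hsd17b7 (1.44), Sc5d (0.97), Insig2 (0.89) and Lss (0.72) rose too. The regulator Srebf1 (-1.07) fell. Of 22 fatty acid genes 4 were higher and 3 lower. Other settings gave 2 higher and 2 lower without OL replicate 1, 2 higher and 3 lower without OL replicate 2 and 7 higher and 2 lower with the equal sum. Acsl3, which activates fatty acids, rose (12.3, 25.1 and 18.9 FPKM in OPCs and 61.0 and 60.1 FPKM in OLs; 1.69 ± 0.28), Fasn, fatty acid synthase, fell (137, 139.9 and 160.5 FPKM in OPCs and 80.4 and 79.9 FPKM in OLs; -0.85 ± 0.17), and the elongase Elovl7 was listed for OLs only with 134 and 74.8 FPKM. With 1 library left out, list medians ran from 0.035 without OL replicate 1 to 0.36 without OL replicate 2 for the cholesterol genes. The call was lost for Hmgcs1 without OL replicate 1, adjusted p 0.0918, for Hsd17b7 without OL replicate 1, adjusted p 0.106, for Sc5d without OL replicate 2, adjusted p 0.0617, for Insig2 without OPC replicate 2, OPC replicate 3, OL replicate 1 or OL replicate 2, with quantile normalization (0.82) or at 1 h (0.41), adjusted p 0.0584 to 0.285, for Lss without OPC replicate 3, OL replicate 1 or OL replicate 2, adjusted p 0.0534 to 0.164, and for Srebf1 without OPC replicate 3 or OL replicate 1, adjusted p 0.0514 to 0.101.

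Of 17 sphingolipid genes tested 4 were higher and 0 lower, with a median of 0.29. These counts came to 2 higher and 0 lower without OPC replicate 3 and without OL replicate 1. The 4 higher were Ugt8a, Gltp (7.99, 6.51 and 6.97 FPKM in OPCs and 95.5 and 48.1 FPKM in OLs; 3.08 ± 0.31), a glycolipid transfer protein, Degs1 (0.95), which completes ceramide, and Sptlc2 (0.93), which starts it. Fa2h, which adds the hydroxyl group of myelin ceramides, and Gal3st1, which makes sulfatide, were listed for OLs only, with 54.2 and 37.0 FPKM and 114 and 60.5 FPKM. Calls were lost for Degs1 without OPC replicate 3 or OL replicate 1, adjusted p 0.0713 to 0.15, and for Sptlc2 without OPC replicate 3, OL replicate 1 or OL replicate 2, adjusted p 0.0804 to 0.153.

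Genes of the cytoskeleton moved both ways. Of 33 tubulin and microtubule genes 15 were higher and 4 lower, with a median of 0.60. The split was 9 higher and 3 lower without OL replicate 1. Map1b, a microtubule stabiliser, had 5.35, 7.65 and 6.74 FPKM in OPCs and 77.3 and 63.2 FPKM in OLs (3.24 ± 0.25), and Dynll2 (3.02), a dynein light chain, and Mapre2 (2.13), an end-binding protein, rose beside Tubb4a, Tppp and Sirt2. Tubb5 had 882, 775 and 868 FPKM in OPCs and 263 and 218 FPKM in OLs (-1.81 ± 0.20) and Tubb6 64.8, 41.3 and 52.7 FPKM in OPCs and 7.06 and 14.4 FPKM in OLs (-2.25 ± 0.31), so beta-tubulin isoforms moved in opposite directions, while Stmn1 (-1.68), which takes microtubules apart, fell. Tubulin genes are close copies of one another, and reads split between them are uncertain. Of 40 actin cytoskeleton genes 9 were higher and 9 lower, with a median of -0.05 that turned to 0.24 with the equal sum and 0.18 with quantile normalization. The counts were 7 higher and 5 lower without OPC replicate 3, 5 higher and 7 lower without OL replicate 1, 9 higher and 4 lower without OL replicate 2, 15 higher and 6 lower with the equal sum and 15 higher and 7 lower with quantile normalization. Wasf1 (12.2, 16.3 and 13.5 FPKM in OPCs and 85.1 and 78.8 FPKM in OLs; 2.47 ± 0.21), an activator of branched actin, led the rises and Msn (82.8, 71.7 and 75.5 FPKM in OPCs and 16.6 and 15.4 FPKM in OLs; -2.19 ± 0.18), moesin, the falls. Medians ran from -0.11 without OL replicate 1 to 0.049 without OPC replicate 1 for the actin genes.

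Of 31 matrix and integrin genes 10 were higher and 6 lower, with a median of -0.10 that turned to 0.15 with the equal sum and 0.03 with quantile normalization. The calls became 5 higher and 7 lower without OL replicate 2. The collagen IX chains in this list, Col9a1 and Col9a3, both rose, and its further chain, Col9a2, was not in the list. Col9a1 had 1.76, 1.03 and 1.02 FPKM in OPCs and 97.2 and 62.9 FPKM in OLs and Col9a3 12.8, 10.2 and 5.51 FPKM in OPCs and 97.9 and 60.6 FPKM in OLs. Adamts4, a protease made by OLs, rose (4.98, 1.64 and 2.80 FPKM in OPCs and 44.4 and 20.9 FPKM in OLs; 3.01 ± 0.42), and the syndecan Sdc3 (115, 109 and 137 FPKM in OPCs and 25.6 and 31.7 FPKM in OLs; -2.04 ± 0.19) and the membrane protease Mmp15 (-2.16) fell. Of 21 channel and receptor genes 7 were higher and 2 lower, with a median of 0.54. Other settings gave 6 higher and 5 lower without OPC replicate 1, 5 higher and 1 lower without OPC replicate 3 and without OL replicate 1 and 9 higher and 1 lower with the equal sum. Kcna2 (2.97, 2.15 and 2.66 FPKM in OPCs and 41.5 and 27.8 FPKM in OLs; 3.29 ± 0.30), a potassium channel, Gria2 (2.36), an AMPA receptor subunit, and Kcnj10 (2.24), an inward rectifier, led, and Kcna1 was listed for OLs only with 118 and 103 FPKM. Leaving out 1 library, medians lay from -0.27 without OL replicate 2 to 0.0034 without OPC replicate 3 for the matrix and integrin genes and from 0.24 without OPC replicate 1 to 0.66 without OL replicate 1 for the channel genes.

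**Figure D3:**
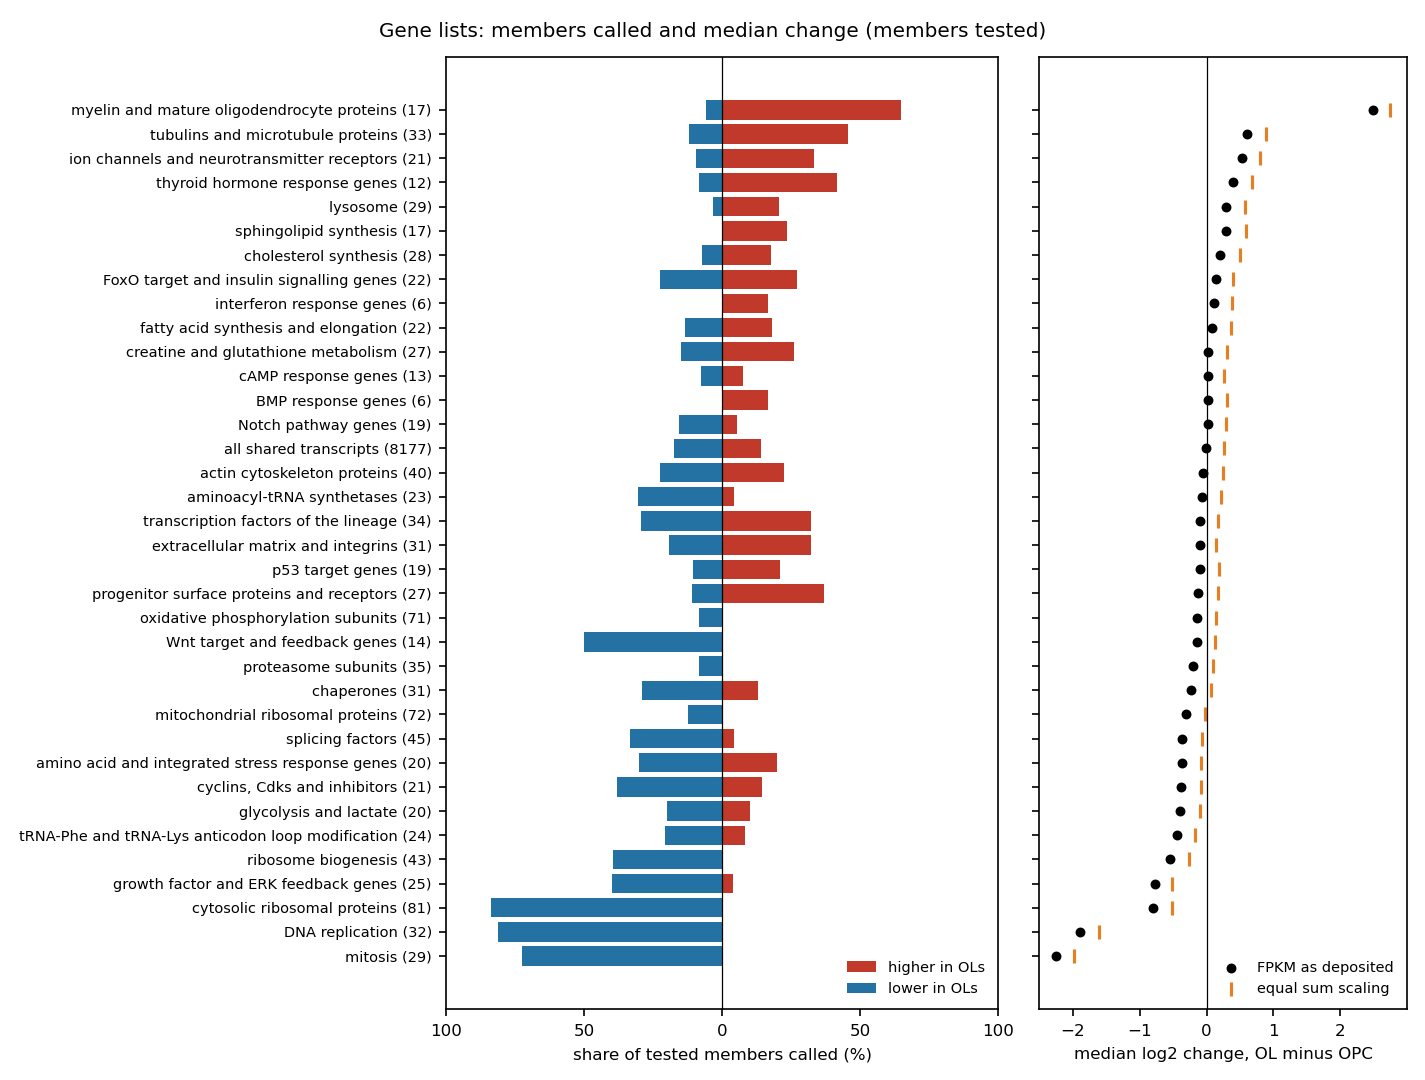
Share of tested members of each gene list called higher (red, right) or lower (blue, left) in OLs, in %, and the median log2 change of the list on the deposited FPKM scale (black points) and with libraries set to an equal sum (orange bars). Numbers in brackets are members tested, and the row of all 8177 shared transcripts (14.1% higher, 17.5% lower) gives the background, while the equal sum moves each median up and turns those from chaperones (-0.23) to actin cytoskeleton (-0.05) above 0.

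Genes of cytosolic ribosomal proteins were lower in OLs for the most part, and their counts depended on the scale. Of 81 cytosolic ribosomal proteins 68 were lower and 0 higher in OLs, with a median of -0.81, and 79 had both OL libraries below all OPC libraries, beside 17.5% of all transcripts called lower and 31.4% with both libraries below. These counts came to 0 higher and 21 lower without OPC replicate 3, 0 higher and 39 lower without OL replicate 1, 0 higher and 20 lower without OL replicate 2, 0 higher and 38 lower with the equal sum and 1 higher and 33 lower with quantile normalization. The median stayed below 0 with each scale, at -0.51 with the equal sum and -0.38 with quantile normalization, where the median of all transcripts was 0.27 and -0.02. Rpsa had 673, 427 and 522 FPKM in OPCs and 255 and 176 FPKM in OLs (-1.32 ± 0.25, adjusted p 0.00429) and Rplp0 842, 579.6 and 685 FPKM in OPCs and 319 and 275 FPKM in OLs (-1.23 ± 0.23), the largest falls of the list, which ran from -1.32 to -0.09. The summed level was 8.46%, 6.74% and 7.28% of the FPKM of the OPC libraries and 5.22% and 4.62% of the OL libraries. Ribosomal protein genes have many near-identical pseudogenes, so single members are uncertain. The call did not hold for Rplp0 with quantile normalization (-0.36), adjusted p 0.0737.

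Of 43 ribosome biogenesis genes 17 were lower and 0 higher, with a median of -0.54 that was -0.26 with the equal sum. The split was 2 higher and 9 lower without OPC replicate 2, 0 higher and 8 lower without OPC replicate 3, 0 higher and 5 lower without OL replicate 1, 0 higher and 9 lower without OL replicate 2 and 1 higher and 7 lower with the equal sum. Nop2 (42.2, 42.3 and 44.8 FPKM in OPCs and 10.9 and 18.8 FPKM in OLs; -1.52 ± 0.25), an rRNA methyltransferase, Nol9 (-1.30) and Fbl (106, 90.1 and 91.5 FPKM in OPCs and 40.9 and 42.5 FPKM in OLs; -1.18 ± 0.17), fibrillarin, fell most. Of 72 mitochondrial ribosomal proteins 9 were lower and 0 higher, so their share called lower was under that of all transcripts. Their median was -0.31, and -0.02 with the equal sum. The counts were 1 higher and 10 lower without OPC replicate 1, 0 higher and 16 lower without OPC replicate 2, 0 higher and 4 lower without OPC replicate 3, 0 higher and 3 lower without OL replicate 1, 0 higher and 5 lower without OL replicate 2 and 1 higher and 5 lower with the equal sum. Of 45 splicing factors 15 were lower and 2 higher, with a median of -0.36 that was -0.07 with the equal sum. The calls became 1 higher and 7 lower without OPC replicate 3 and without OL replicate 2, 1 higher and 8 lower without OL replicate 1 and 3 higher and 8 lower with the equal sum. Ptbp1, a splicing repressor of progenitors, had 126, 127 and 124 FPKM in OPCs and 34.6 and 40.6 FPKM in OLs (-1.72 ± 0.17, adjusted p 0.000113). Mbnl2 (17.1, 29.8 and 25.9 FPKM in OPCs and 67.9 and 63.7 FPKM in OLs; 1.44 ± 0.25) and Qk (86.3, 217 and 152 FPKM in OPCs and 292 and 333 FPKM in OLs; 1.13 ± 0.33), which binds myelin mRNAs, rose. With 1 library left out, list medians ran from -0.41 without OPC replicate 2 to -0.19 without OPC replicate 1 for mitochondrial ribosomal proteins and from -0.46 without OPC replicate 1 to -0.21 without OPC replicate 2 for splicing factors. The test was not passed for Qk without OPC replicate 3, OL replicate 1 or OL replicate 2, adjusted p 0.071 to 0.158.

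Of 24 genes for the anticodon loop modifications of tRNA-Phe and tRNA-Lys that were tested, 5 were lower and 2 higher, beside 17.5% and 14.1% of all transcripts, and 14 had both OL libraries below all OPC libraries, beside 31.4%. Their median was -0.45, and -0.17 with the equal sum. The study chose these pathways and reported on their genes from data that included such samples, so the count is not independent of it. Other settings gave 2 higher and 3 lower without OPC replicate 3, 2 higher and 1 lower without OL replicate 1, 1 higher and 1 lower without OL replicate 2 and 4 higher and 2 lower with the equal sum. Ctu2 (18.3, 15.5 and 14.4 FPKM in OPCs and 6.73 and 7.15 FPKM in OLs; -1.10 ± 0.26), of wobble uridine thiolation, and Thada (12.2, 17.0 and 13.9 FPKM in OPCs and 5.95 and 7.38 FPKM in OLs), of ribose methylation, fell, as did Elp6 (-0.97), Kti12 (-0.85) and Elp3 (-0.73) of the Elongator pathway. Urm1, the sulfur carrier of the same thiolation, rose, with 22.6, 19.6 and 19.8 FPKM in OPCs and 155 and 95.0 FPKM in OLs (2.50 ± 0.23, adjusted p 8.56e-05), as did the sulfurtransferase Tst (8.82, 11.7 and 15.7 FPKM in OPCs and 29.7 and 58.9 FPKM in OLs; 1.75 ± 0.34). Ctu1, Lcmt2 and Trmt5 were in the OL table only, Osgep for OPCs only, and Tyw3, Tyw5 and Trp53rk in neither table. Of 23 aminoacyl-tRNA synthetases 7 were lower and 1 higher, and their median of -0.07 turned to 0.21 with the equal sum. These counts came to 0 higher and 5 lower without OPC replicate 1, 0 higher and 2 lower without OPC replicate 3 and without OL replicate 1, 0 higher and 1 lower without OL replicate 2 and 2 higher and 2 lower with the equal sum. Kars (75.4, 59.0 and 69.0 FPKM in OPCs and 39.1 and 28.4 FPKM in OLs; -0.99 ± 0.21), the lysine enzyme, fell most, and Rars (0.60), the arginine enzyme, rose. Medians ran from -0.52 without OPC replicate 2 to -0.29 without OL replicate 2 for the tRNA modification genes and from -0.28 without OL replicate 1 to -0.093 without OPC replicate 2 for aminoacyl-tRNA synthetases. The threshold was not reached for Ctu2 without OL replicate 1 or OL replicate 2, adjusted p 0.056 to 0.077, for Thada without OPC replicate 3, OL replicate 1 or OL replicate 2 or with the equal sum (-0.73), adjusted p 0.0663 to 0.145, for Elp6 without OL replicate 2, adjusted p 0.0551, for Kti12 without OL replicate 1 or OL replicate 2 or with the equal sum (-0.57), adjusted p 0.0717 to 0.127, for Elp3 without OPC replicate 2, OPC replicate 3 or OL replicate 1 or with the equal sum (-0.44), adjusted p 0.0522 to 0.217, for Tst without OL replicate 2, adjusted p 0.0632, for Kars without OL replicate 2, adjusted p 0.0676, and for Rars without OPC replicate 1, OPC replicate 3, OL replicate 1 or OL replicate 2 or with limma without trend, adjusted p 0.0647 to 0.217.

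Groups of metabolism and protein turnover had smaller counts. Of 20 glycolysis genes 4 were lower and 2 higher, with a median of -0.39 that was -0.10 with the equal sum and -0.05 with quantile normalization. The split was 1 higher and 2 lower without OL replicate 1 and without OL replicate 2. Ldha (559.8, 312 and 373 FPKM in OPCs and 191 and 95.1 FPKM in OLs; -1.57 ± 0.33), which makes lactate, fell most, and Pdk1 (1.71) and Pdk2 (1.42), which inhibit pyruvate dehydrogenase, rose. Of 71 oxidative phosphorylation subunits 6 were lower and 0 higher, and of 35 proteasome subunits 3 were lower and 0 higher, shares under the 17.5% of all transcripts, and their medians of -0.15 and -0.20 turned to 0.15 and 0.09 with the equal sum, and that of oxidative phosphorylation to 0.05 with quantile normalization. For oxidative phosphorylation genes other settings mattered. The counts were 2 higher and 5 lower without OPC replicate 1, 0 higher and 13 lower without OPC replicate 2, 0 higher and 1 lower without OPC replicate 3 and without OL replicate 2, 0 higher and 2 lower without OL replicate 1, 2 higher and 2 lower with the equal sum and 8 higher and 4 lower with quantile normalization. For proteasome genes they did as well. The calls became 0 higher and 0 lower without OPC replicate 1, without OPC replicate 3, without OL replicate 1, without OL replicate 2 and with median-of-ratios scaling, 0 higher and 7 lower without OPC replicate 2 and 2 higher and 0 lower with the equal sum. Leaving out 1 library, medians lay from -0.53 without OPC replicate 2 to -0.21 without OPC replicate 1 for the glycolysis genes, from -0.27 without OPC replicate 2 to -0.03 without OPC replicate 1 for oxidative phosphorylation subunits and from -0.30 without OPC replicate 2 to -0.11 without OPC replicate 1 for proteasome subunits. The call was lost for Ldha without OL replicate 2, adjusted p 0.0655, for Pdk1 without OL replicate 1, adjusted p 0.0931, and for Pdk2 without OL replicate 2, adjusted p 0.0861.

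Of 29 lysosome genes 6 were higher and 1 lower, beside 14.1% and 17.5% of all transcripts, with a median of 0.30. Other settings gave 5 higher and 2 lower without OPC replicate 2, 4 higher and 0 lower without OL replicate 1, 5 higher and 0 lower without OL replicate 2, 9 higher and 0 lower with the equal sum and 8 higher and 2 lower with quantile normalization. Arsb (2.52, 1.21 and 1.51 FPKM in OPCs and 51.6 and 43.4 FPKM in OLs; 4.17 ± 0.31), a sulfatase, and Ctsl (8.84, 14.1 and 14.2 FPKM in OPCs and 66.5 and 64.9 FPKM in OLs; 2.35 ± 0.25), a cathepsin, led. Of 20 amino acid and stress response genes 4 were higher and 6 lower. These counts came to 2 higher and 5 lower without OPC replicate 3 and without OL replicate 1 and 1 higher and 6 lower without OL replicate 2. Shmt1 (25.4, 31.9 and 24.2 FPKM in OPCs and 2.05 and 1.80 FPKM in OLs; -3.26 ± 0.27) and Shmt2 (-1.98), which pass 1-carbon units from serine, fell most. Of 27 creatine and glutathione genes 7 were higher and 4 lower, beside the same background. The split was 7 higher and 2 lower without OPC replicate 1 and with median-of-ratios scaling, 4 higher and 1 lower without OPC replicate 3, 5 higher and 1 lower without OL replicate 1, 3 higher and 4 lower without OL replicate 2 and 7 higher and 1 lower with the equal sum. Gatm (7.43, 1.53 and 1.90 FPKM in OPCs and 112 and 43.3 FPKM in OLs; 4.16 ± 0.55), the first enzyme of creatine synthesis, led.

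Other signalling pathways differed in their counts. Of 14 Wnt target and feedback genes 7 were lower and 0 higher, beside 17.5% and 14.1% of all transcripts, with a median of -0.15 that turned to 0.13 with the equal sum and 0.14 with quantile normalization. The counts were 1 higher and 5 lower without OPC replicate 2, 0 higher and 2 lower without OPC replicate 3, without OL replicate 1 and with the equal sum and 0 higher and 4 lower without OL replicate 2. The receptors Fzd2 (31.2, 27.8 and 28.7 FPKM in OPCs and 7.42 and 10.3 FPKM in OLs; -1.63 ± 0.24) and Fzd1 (-1.56) and the feedback inhibitor Axin2 (-1.33) fell most. Of 19 Notch pathway genes 3 were lower and 1 higher, no more than those shares of all transcripts, with a median of 0.01 that turned to -0.06 with quantile normalization. The calls became 2 higher and 3 lower without OPC replicate 1, 0 higher and 3 lower without OL replicate 2 and 5 higher and 3 lower with the equal sum. Lfng (195, 154 and 168 FPKM in OPCs and 24.9 and 41.7 FPKM in OLs; -2.38 ± 0.23), which adds sugars to Notch, and Notch3 (-1.76) fell, and the effector Hey1 (32.5, 16.0 and 29.0 FPKM in OPCs and 54.0 and 85.3 FPKM in OLs; 1.42 ± 0.32) rose. With 1 library left out, list medians ran from -0.28 without OPC replicate 1 to -0.16 without OPC replicate 2 for Wnt target and feedback genes and from -0.057 without OPC replicate 1 to 0.03 without OPC replicate 3 for Notch pathway genes. Calls were lost for Axin2 without OPC replicate 3, OL replicate 1 or OL replicate 2, with the equal sum (-1.07) or at 1 h (-0.99), adjusted p 0.0513 to 0.193, and for Hey1 without OL replicate 2, adjusted p 0.108.

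Of 31 chaperones 9 were lower and 4 higher, with a median of -0.23 that turned to 0.06 with the equal sum and 0.07 with quantile normalization. Other settings gave 2 higher and 3 lower without OPC replicate 3 and 2 higher and 4 lower without OL replicate 1 and without OL replicate 2. Subunits of the TRiC folding complex, Cct2 (609, 471 and 497 FPKM in OPCs and 209.7 and 245 FPKM in OLs; -1.20 ± 0.20), Tcp1 (-0.94), Cct3 (-0.85) and Cct4 (-0.69), were among those that fell, and the heat shock protein genes Hspa2 (5.73, 4.08 and 6.12 FPKM in OPCs and 20.4 and 16.2 FPKM in OLs; 1.62 ± 0.29) and Hspa1b (1.44) rose. Hspa1b has a near-identical copy, Hspa1a, which was listed for OLs only. Of 19 p53 target genes 4 were higher and 2 lower, and the median of -0.10 turned to 0.19 with the equal sum. These counts came to 2 higher and 2 lower without OPC replicate 3 and without OL replicate 1 and 0 higher and 2 lower without OL replicate 2. Mdm2 (20.7, 32.7 and 23.8 FPKM in OPCs and 47.5 and 63.8 FPKM in OLs; 1.09 ± 0.25), the ligase for p53, rose. Of 13 cAMP response genes only Pde4b (0.93) and Per2 (-0.98) were called, and of 6 BMP response genes only Hey1. Medians ran from -0.34 without OL replicate 2 to -0.11 without OL replicate 1 for chaperones and from -0.12 without OPC replicate 3 to 0.12 without OL replicate 1 for p53 target genes. The call did not hold for Cct3 without OPC replicate 3 or OL replicate 2, adjusted p 0.0628 to 0.064, for Cct4 without OPC replicate 3, OL replicate 1 or OL replicate 2 or with the equal sum (-0.39), adjusted p 0.056 to 0.117, for Mdm2 without OL replicate 2, adjusted p 0.1, for Pde4b without OL replicate 1, adjusted p 0.0799, and for Per2 without OPC replicate 3, OL replicate 1 or OL replicate 2, with the equal sum (-0.75) or at 1 h (-0.55), adjusted p 0.0627 to 0.164.

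The OL libraries differed from each other in some of these groups. Over all 8177 shared transcripts OL replicate 1 was above OL replicate 2 for 3527 and below it for 4650. OL replicate 1 was above OL replicate 2 in 30 of 32 replication, 27 of 29 mitosis and 15 of 17 myelin genes, and below it in 16 of 19 p53 target genes and in 6 of 6 BMP response genes. Astrocyte markers moved with this split. Of 10, 6 were tested, and their median change against the OPC mean was -0.13 in OL replicate 1 and 0.97 in OL replicate 2, with OL replicate 2 above in 5 of 6. The 6 summed to 474.6 to 588.1 FPKM in OPCs and to 708.2 and 883.2 FPKM in OLs, Gfap and Aldh1l1 were listed for OLs only (6.86 and 8.12 FPKM and 1.72 and 2.44 FPKM), and Aqp4 and Gjb6 were listed in neither table. S100b (9.07, 10.5 and 9.11 FPKM in OPCs and 290.0 and 160.2 FPKM in OLs; 4.36 ± 0.26), which OL lineage cells also express, and Slc1a2 (25.1, 22.9 and 37.0 FPKM in OPCs and 77.4 and 95.7 FPKM in OLs; 1.60 ± 0.24) were higher in OLs, Slc1a3 was lower (224, 179 and 200.2 FPKM in OPCs and 95.5 and 155 FPKM in OLs; -0.72 ± 0.23), and Gja1 was not called (42.0, 40.2 and 35.8 FPKM in OPCs and 40.1 and 188 FPKM in OLs). The part of astrocytes in the results was not tested. The test was not passed for Slc1a3 without OPC replicate 1, OPC replicate 3 or OL replicate 1, with the equal sum (-0.42), with quantile normalization (-0.48) or with limma without trend, adjusted p 0.0531 to 0.29. Calls were gained for Gja1 without OL replicate 1 or at 1 h (1.18), adjusted p 0.0012 to 0.0192.

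Some single transcripts lay far apart between the OL libraries. Hmox1, a heme oxygenase of the oxidative stress response, had 19.0, 11.2 and 12.8 FPKM in OPC replicates 1, 2 and 3 and 35.1 and 272 FPKM in OL replicates 1 and 2 (2.73 ± 0.66, adjusted p 0.0129), and the peroxiredoxin Prdx6 had 87.1, 57.2 and 71.2 FPKM in OPCs and 104 and 469 FPKM in OLs (1.63 ± 0.50). Sdc2 had 21.8, 13.7 and 11.9 FPKM in OPCs and 22.5 and 79.5 FPKM in OLs (1.42 ± 0.46). OL replicate 2 was the higher in all 3, and without it the log2 changes of Hmox1, Prdx6 and Sdc2 were 1.27, 0.55 and 0.53. Id3, a BMP target that holds back differentiation, had 219, 162 and 183 FPKM in OPCs and 27.4 and 204 FPKM in OLs, so OL replicate 2 lay within the range of OPCs and OL replicate 1 below it. The threshold was not reached for Hmox1 without OL replicate 2, adjusted p 0.055, for Prdx6 without OPC replicate 2, OPC replicate 3 or OL replicate 2 or with limma without trend, adjusted p 0.0565 to 0.209, and for Sdc2 without OPC replicate 2, OPC replicate 3 or OL replicate 2 or with limma without trend, adjusted p 0.0626 to 0.392. A call was gained for Id3 without OL replicate 2, adjusted p 0.00102.

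**Figure D4:**
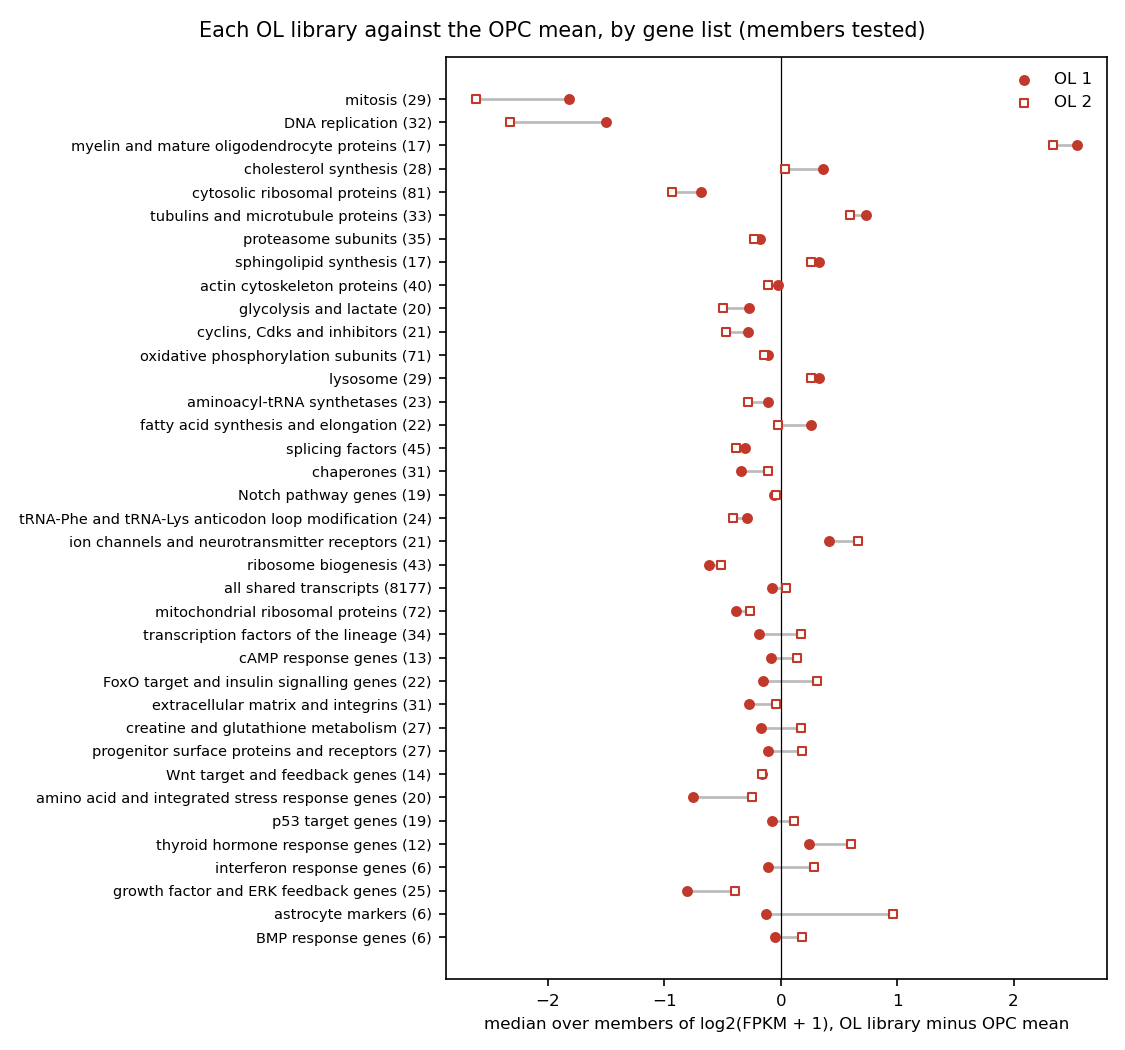
Median over the members of each list of log2(FPKM + 1) in OL replicate 1 (filled circles) and OL replicate 2 (open squares) minus the OPC mean, with a line joining the pair and lists ordered by the median over members of replicate 1 minus replicate 2. Both symbols lie on the same side of 0 for mitosis, DNA replication, myelin, tubulins and cytosolic ribosomal proteins, and on opposite sides for astrocyte markers (-0.13 and 0.97).

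The 353 transcripts listed for OPCs only had a median level of 6.04 FPKM, and 45 of them (12.8%) reached 20 FPKM. The shared transcripts, for comparison, had a median of 19.2 FPKM in OPCs and 19.6 FPKM in OLs. The highest were Pttg1 (155, 82.7 and 140.2 FPKM), the securin that guards sister chromatids, Pimreg (79.7, 77.0 and 106 FPKM), Cdk1 (82.6, 81.6 and 89.5 FPKM), the mitotic kinase, and Tk1 (96.3, 69.8 and 85.1 FPKM), thymidine kinase. Aurkb (59.8 FPKM on average), Spc25 (51.3), Pmf1 (49.3), Cdca7 (48.0), Prc1 (47.9) and Cenpm (46.8) completed the 10 highest. An OL library with under 1 FPKM at 0 h, or no signal at both 1 h and 2 h, left a transcript out of the OL table, so the OL level of each is not given.

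The 1574 transcripts listed for OLs only had a median of 5.30 FPKM, and 138 (8.77%) reached 20 FPKM. The table of OLs had to pass the filter in 2 libraries and that of OPCs in 3, so the lengths of these lists are not compared. Mt2, a metal-binding protein, was the highest, with 271 and 1173 FPKM, and OL replicate 2 was far above replicate 1. Others among the highest, beside Mag, were Ptgds (275 and 294 FPKM), prostaglandin D synthase, Tmem88b (228 and 122 FPKM), Enpp6 (219.8 and 129 FPKM), a choline phosphodiesterase of new OLs, and Enpp2 (199 and 131 FPKM), autotaxin. Abhd3 (159.9 FPKM on average), Nfasc (146), a neurofascin that ties myelin to the axon, and Rasgef1b (143) followed. Id2 (60.9), Id1 (50.4) and Id4 (19.5), of the BMP response, were also in this list.

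**Figure D5:**
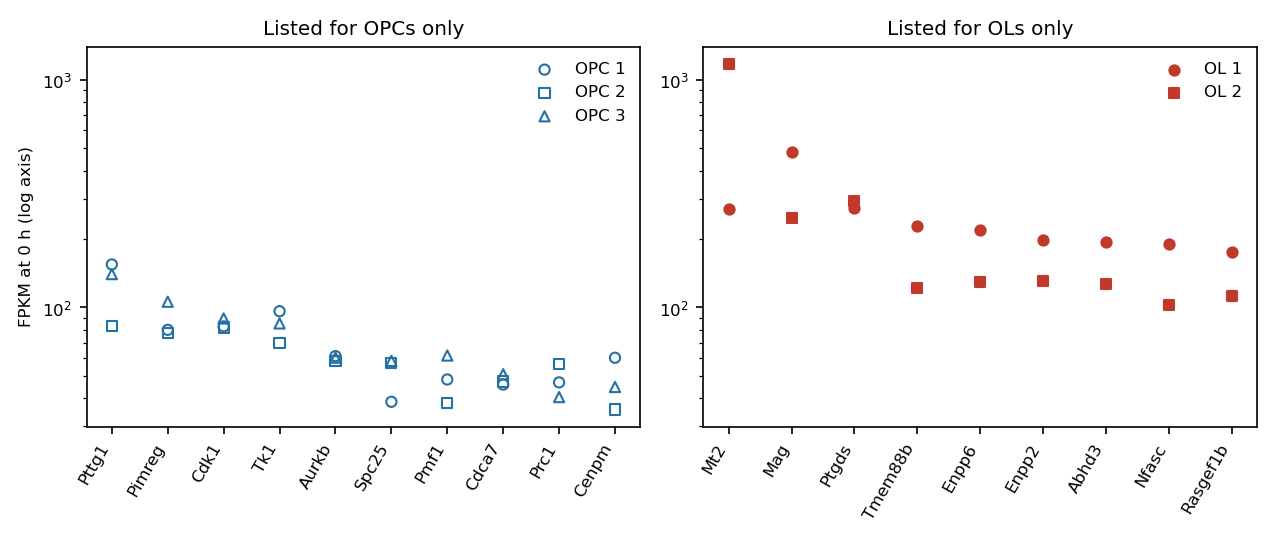
FPKM at 0 h in each library (vertical, log axis) of the 10 highest transcripts listed for OPCs only (left, 3 OPC replicates) and of 9 of the 10 highest listed for OLs only (right, 2 OL replicates). The OPC list is led by Pttg1 at 126 FPKM and the OL list by Mt2, whose OL libraries at 271 and 1173 FPKM lie furthest apart.

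The comparison was repeated on the libraries of the next time point. With each 1 h library centred on its median, 2822 transcripts were called, 1230 higher and 1592 lower. Of the 1155 transcripts higher at 0 h, 1154 had the same sign at 1 h and 963 were called again, and of the 1431 lower, 1427 and 1203. The 1 h libraries carry the same replicate numbers, so they repeat the measurement and are not counted as further replicates.

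Transcripts higher and lower in OLs also differed in sequence features. Median transcript length was 3610 bases for those higher, 2612 for those lower and 3213 for those not called. The 3′ untranslated region differed likewise, with medians of 1570, 791 and 1198 bases. The median share of uridine, the base that 5-EU replaces, was 25.8%, 23.4% and 24.7%. For codon use the transcripts lower in OLs stood further from those not called than the transcripts higher did. The median G+C share at the third codon position was 58.3%, 64.2% and 59.9%, and AAA made up 40.9%, 30.9% and 38% of lysine codons. UUU made up 46.2% of phenylalanine codons both in those higher and in those not called, and 39.3% in those lower. The interquartile ranges of these sets overlapped, and no test was made. FPKM divide by length but not by U content, and the part of labelling in the calls was not tested.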

How the data were processed

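Labelled RNA was pulled down from fragmented, rRNA-depleted RNA of OPCs and OLs and sequenced as single reads on an Illumina HiSeq. The authors aligned reads to GRCm38, assembled and quantified canonical coding transcripts of GENCODE and deposited FPKM tables, from which transcripts under 1 FPKM at 0 h in a replicate, or without signal at both 1 h and 2 h, had been removed. HISAT2 2.1.0 and StringTie 1.3.5 are given in the submitters' processing notes. The 0 h columns hold unscaled FPKM and the later columns FPKM scaled to spike-in RNA. Every listed transcript was checked to reach 1 FPKM in each 0 h library of its table. Tables of fitted half-lives were not used, and a control without biotin was not analysed here, so background on the beads was not subtracted. Whole reads could not be recovered from the values.

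Both tables were joined on transcript identifier. Differences, OL minus OPC, were fitted on log2(FPKM + 1) over the 5 libraries at once with limma 3.58.1 (R 4.3.3) with an intensity trend, and adjusted by Benjamini-Hochberg over all 8177 shared transcripts. Errors are SE of the log2 change or SD of FPKM, and fold changes understate those of low transcripts because of the pseudocount of 1 FPKM. Transcripts of 1 table were given no fold change. The fit was also run on simulated data with known changes in far fewer transcripts than were called here. That run checks the code only and says little about the calls. Tables were handled with pandas 2.3.3 and numpy 2.4.6 under Python 3.11.15, and drawn with matplotlib 3.10.9. Promoters came from RefSeq (GRCm38.p6), matched by symbol.

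Named were the 15 largest changes in each direction among called transcripts whose groups did not overlap, the same with a mean of at least 20 FPKM in the higher group, up to 6 called members of each list in a direction, list members a reader would look for, and the 10 highest transcripts of each table alone. Some genes that this rule names are not reported here. The comparison, the lists and the rule were chosen with earlier results of these data known.

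Alternatives were a pseudocount of 0.1 FPKM or none, a mean of at least 5 FPKM, median-of-ratios scaling, an equal sum over shared transcripts, quantile normalization, limma without trend, each library left out in turn, the replicate number as a block, and the 1 h libraries. Replicate numbers were not taken as pairs, since the sources used here do not say which OPC replicates the OLs match. Deviations from the group mean correlated at 0.06 and 0.01 between same-numbered libraries, but those of 2 OL libraries mirror each other, so this check can show little.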

Additional observations from a re-analysis of the deposited data

How the results depend on the processing

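The count of 2586 transcripts ranged from 2253 to 2815 over pseudocounts, level filter, scalings, limma without trend and the replicate block, and was 2822 at 1 h. With the equal sum the split moved to 1810 higher and 850 lower, and the calls shared 2005 with the main ones. Leaving out 1 library in turn gave 1183 to 2912 calls, 483 to 1400 higher and 700 to 1512 lower, lowest without OL replicate 1. In these fits an arm of 1 library was assumed to vary like the other arm. With the replicate block, where OPC replicate 3 stands alone, 2253 transcripts were called, 1076 higher and 1177 lower, of which 2051 were shared with the main calls. Which replicates match is not given, so this fit tests only a shared number. Among named transcripts it ended the calls of Olig1 (adjusted p 0.055), Olig2 (0.0675), Nkx2-2 (0.152), Rars (0.151), Insig2, Lss, Sptlc2, Thada, Elp3 and Per2, and it called Id3, Mki67 and Gja1. With quantile normalization the change of Olig1 was 0.33 (adjusted p 0.109), and leaving out 1 library in turn the change of Id3 ran from -2.72 to 0.13.

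Depth is unknown, 2 OL libraries give little hold on the spread, and transcripts near 1 FPKM are the least certain. Levels rest on labelled RNA, so differences in uptake of 5-EU between the cell types cannot be told apart from differences in RNA.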
